A study of Mus musculus with 6 samples.

Results

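This account describes 9 genes of blood coagulation control in cultured mouse skin fibroblasts: the protein C receptor gene Procr, the thrombomodulin gene Thbd, the protein S gene Pros1, its relative Gas6, the tissue factor gene F3, the inhibitor genes Tfpi and Tfpi2, and the protease-activated receptor genes F2r and F2rl1. They are 9 of 43629 genes in the deposited tables, and all 9 are among the 15341 genes with enough reads to be tested. The genes were chosen by name as a functional group with the fold changes between the 2 genotypes of these libraries already known, so their fold changes and calls are given as a description and support no further statement.

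The libraries are RNA-seq of primary fibroblasts, the collagen-producing cells of the dermis, which were grown out of newborn mouse skin, cultured for 6 days and used at passage 1. Each animal carried Col1a2Cre, a Cre recombinase under Col1a2 regulatory sequence that is active in fibroblasts and other mesenchymal cells, on a mixed background of 50% C57Bl/6 and 50% FVB/N. The 3 ctrl libraries (genotype Col1a2Cre-wt) came from mice with Cre only. The 3 caNrf2 libraries (genotype Col1a2Cre-caNrf2) came from mice with Cre plus a constitutively active mutant of the transcription factor Nrf2, which binds antioxidant response elements in DNA. The series' design text gives 3 mice per genotype. The sample labels do not tie a library to a mouse, so the errors below measure the spread between libraries.

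Coagulation begins when tissue factor, a membrane protein of cells outside the bloodstream such as fibroblasts, binds factor VII from plasma. The cascade ends in thrombin, which makes fibrin and also cleaves protease-activated receptors on cells. Thrombin bound to thrombomodulin instead activates protein C, a step that the protein C receptor speeds up by holding protein C at the cell surface, and activated protein C with its cofactor protein S shuts the cascade down. The tissue factor pathway inhibitor blocks the first step.

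The libraries held 30168400 to 45164208 expected counts each. Nfe2l2, which encodes Nrf2, stood at a mean of 109 ± 5.87 CPM in the ctrl libraries and of 380.1 ± 43.2 CPM in the caNrf2 libraries (SD, n = 3 each), where CPM scales the counts of each library to a common total, with library sizes adjusted by TMM. Across genes, which are not replicates, libraries of the same genotype correlated at 0.985 to 0.993 and libraries of different genotypes at 0.957 to 0.972. Of the 15341 genes, 21.5% were called in the edgeR test at an adjusted p under 0.05, 12.5% higher and 9.03% lower in caNrf2 (1917 and 1385 genes). With upper-quartile scaling the counts were 1744 higher and 1750 lower. All 10 fibroblast markers were detected, with the type I collagen genes Col1a1 and Col1a2 at a mean of 4600 and 3866 TPM (a level per transcript length). Of these markers 2 were higher and 4 lower in caNrf2. Col1a1 (0.68-fold) lost its call without ctrl replicate 2 or 3 and without any 1 of the caNrf2 replicates, and Col1a2 was at 0.617-fold. The other 4 called markers, chosen for mention after their values were seen, were Pdgfra and Thy1 on the higher side and Col3a1 and Pdgfrb on the lower side.

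Among the 9 genes, Procr was sharply higher in caNrf2, Tfpi slightly higher, Gas6 at 0.535 and Tfpi2 at 0.722 times its ctrl level. Thbd, Pros1, F3, F2r and F2rl1 were not called. That is 2 higher and 2 lower of 9, beside the 12.5% and 9.03% of all genes given above. The CPM of the groups did not overlap for 5 of the 9 genes, where 42.1% of all tested genes had groups that did not overlap. Because the genes were chosen with this contrast in view, nothing is read from these shares. The median log2 fold change of the 9 genes was -0.06, beside -0.003 for all tested genes.

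**Figure D1:**
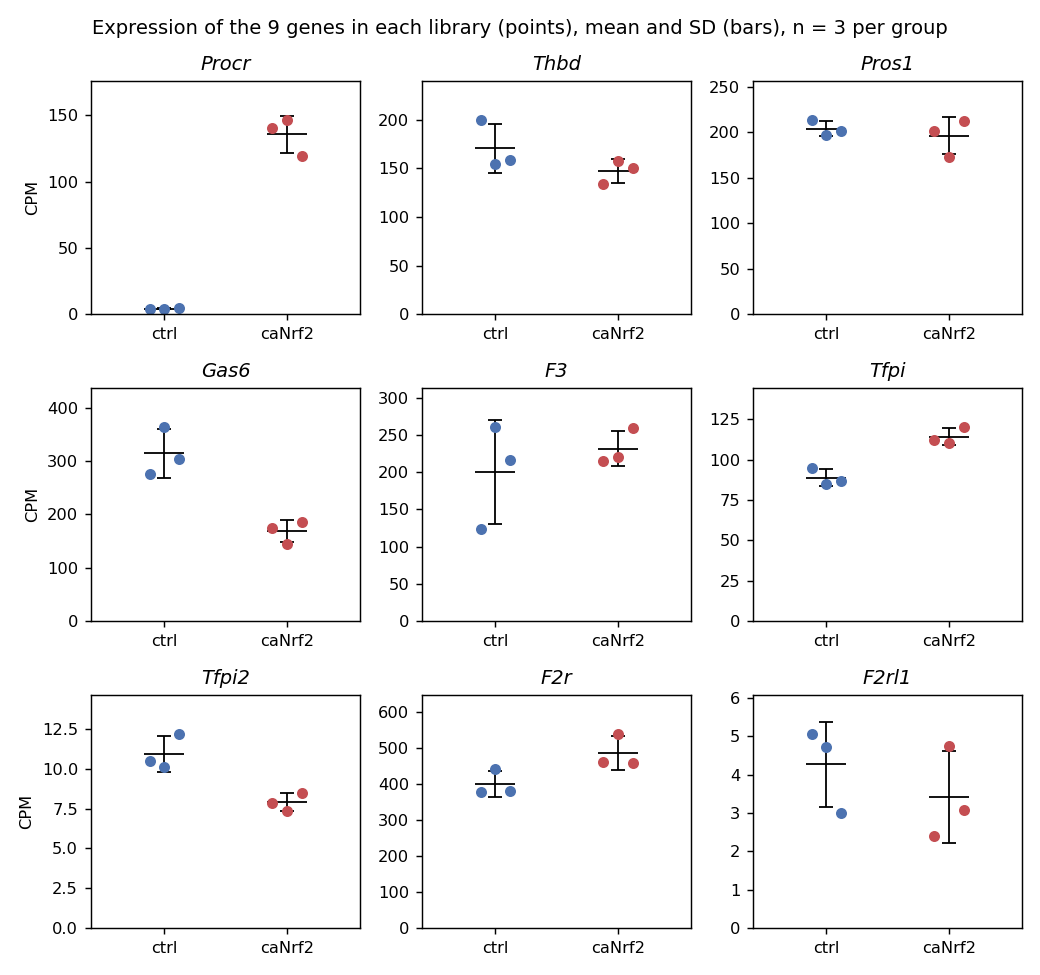
Expression of each of the 9 genes in CPM (y axis from 0) in the 3 ctrl (blue) and 3 caNrf2 (red) libraries, with bars for mean and SD. The caNrf2 points of Procr lie between 119.7 and 147 CPM and its ctrl points at or below 4.56 CPM, while the points of Thbd, Pros1, F3 and F2rl1 overlap.

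Procr (ENSMUSG00000027611, chromosome 2, 155751117 to 155755471, GRCm38, plus strand) encodes the receptor that presents protein C to the complex of thrombin and thrombomodulin, also known as CD201. Its level was 4.26, 3.80 and 4.56 CPM in ctrl replicates 1 to 3 and 141, 147 and 119.7 CPM in caNrf2 replicates 1 to 3. Every caNrf2 library lay far above every ctrl library, on 138 to 170 counts per ctrl library and 5196 to 6498 per caNrf2 library. The log2 fold change was 5.02 with a standard error of 0.12, which is 32.4-fold and the 61st highest of the 15341 tested genes. It ranged from 4.94 to 5.09 when any 1 library was left out.

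Reads of Procr were assigned to 4 annotated transcripts. The main protein-coding transcript, ENSMUST00000029140, held 75.7% to 82.4% of the gene's TPM in ctrl libraries and 77.3% to 78.4% in caNrf2 libraries. A processed transcript without a coding sequence, ENSMUST00000143493, held 11.3% to 24.3% and 11.6% to 14%. The short coding transcript ENSMUST00000132608 was listed at 0 in each ctrl library and at 3.29 to 4.09 TPM in the caNrf2 libraries, or 1.70% to 2.65% of the gene's TPM there. With only 138 to 170 counts of the whole gene per ctrl library, the values of 0 do not show that this transcript was absent from ctrl. Relative use of transcripts, a measure that the gene sum does not contain, was not called for Procr (edgeR diffSpliceDGE, unadjusted p = 0.173), in a test that called 0.801% of 7992 genes. Only Procr and Tfpi of the 9 genes had enough transcripts for it, and 0 of the 2 passed, with 0 also at an unadjusted p under 0.05 and 0 called by limma diffSplice.

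The sequence upstream of Procr is shown because it holds a match to the core of the antioxidant response element, the DNA element that Nrf2 binds. RefSeq promoter windows on GRCm38.p6, 250 bases before to 50 after each transcription start, were available for 7 of the 9 genes. The Procr run covers the first 150 bases of its window (chr2:155750967-155751116, plus strand) and ends just before the gene start of the deposited tables. The F2r and F3 runs cover the same part of their windows (chr13:95618567-95618716, minus strand, and chr3:121723287-121723436, plus strand), and all are read 5′ to 3′ along the gene. F2r is shown because it carries the same element, and F3 because it carries the shorter AP-1 motif without the core. Capitals mark matches to the core or to AP-1.
Procr upstream: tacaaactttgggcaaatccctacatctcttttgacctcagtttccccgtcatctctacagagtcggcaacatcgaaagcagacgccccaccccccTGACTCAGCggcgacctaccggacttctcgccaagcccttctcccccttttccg
F2r upstream: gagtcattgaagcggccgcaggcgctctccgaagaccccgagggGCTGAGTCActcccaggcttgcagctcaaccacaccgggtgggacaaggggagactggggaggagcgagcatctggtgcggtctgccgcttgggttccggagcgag
F3 upstream: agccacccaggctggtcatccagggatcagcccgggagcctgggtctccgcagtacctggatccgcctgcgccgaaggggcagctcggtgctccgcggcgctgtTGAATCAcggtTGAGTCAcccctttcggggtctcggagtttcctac

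The searched core was TGACNNNGC and the AP-1 motif TGANTCA, each on both strands. In Procr the core lies 154 to 146 bases before the RefSeq start (155751063 to 155751071), and in F2r on the opposite strand 206 to 198 bases before the start. The core was present in 12.4% of all 32851 windows. In both genes the match also contains the AP-1 motif, which 7.81% of all windows hold. The combined form of both motifs, counted only after the match in Procr had been seen, stands in 0.454% of windows. The core was not in the windows of Pros1, Gas6, F3, Tfpi and Tfpi2. In F3 the capitals mark 2 AP-1 matches, and 1 of the 3 Tfpi2 windows had an AP-1 match. These matches describe letters in a window and not binding. Beside these matches, Procr was 32.4-fold higher in caNrf2, while F2r was at 1.22-fold and not called.

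**Figure D2:**
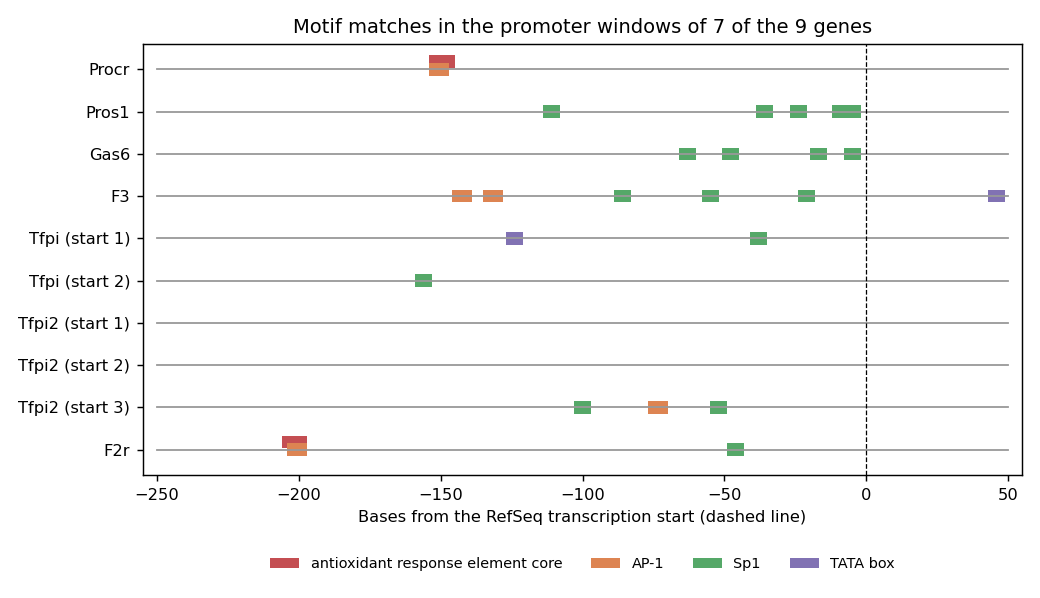
Motif matches in the RefSeq promoter windows of 7 of the 9 genes, by distance in bases from the transcription start (dashed line at 0), with 1 row per annotated start. The antioxidant response element core (red) is in the rows of Procr and F2r only, each time over an AP-1 match (orange). Sp1 (GGGCGG) and TATA box (TATAAA) matches are drawn in green and purple.

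The tested genes whose profile over the 6 libraries lay nearest to Procr were Pard3bos3, Lix1 and Tmem178, at Euclidean distances of 0.252, 0.261 and 0.518 between mean-centred log2 CPM values. Lix1 stood at 0.677 to 0.859 CPM in ctrl and 21.9 to 25.9 CPM in caNrf2. The distance measures only a likeness of profile, not of level.

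Procr is known as a gene of endothelial cells, and its level can be set beside markers of that and other cell types. In bulk RNA, more cells of a type and more RNA per cell cannot be told apart. The 13 endothelial markers added up to 31.5 to 39.0 CPM in ctrl libraries and 38.3 to 44.2 CPM in caNrf2 libraries (CPM of total counts), and none was at 0. The largest part of these sums was Flt1, named after its value was seen, at 19.3 ± 2.65 and 21.7 ± 3.35 CPM (not called). Procr was at 119.7 to 147 CPM in caNrf2, in CPM adjusted by TMM. The part of endothelial cells in the Procr level was not tested. Of the 11 tested endothelial markers 1 was called, the cadherin gene Cdh5 (2.16 ± 0.682 to 4.48 ± 0.616 CPM, SD, n = 3 each, edgeR adjusted p = 0.0136), which lost its call without caNrf2 replicate 2. The most abundant one per length, Egfl7, averaged 3.60 ± 0.861 and 4.45 ± 0.718 CPM. A log2 fold change above 0 was found for 8 of the 11 tested endothelial markers, called or not, beside 49.6% of all tested genes. Their median over the 11 was 0.41, beside -0.003 for all tested genes. The groups did not overlap for 6 of the 11, not all in the same direction, beside 42.1% of all tested genes.

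The marker counts that follow stand beside 12.5% of all tested genes called higher and 21.5% called in either direction. Macrophage and leukocyte markers were higher in caNrf2 cultures in 11 of 11 tested cases. The 13 markers of that list added up to 20.5 to 58.1 CPM in ctrl and 142 to 169 CPM in caNrf2, with the T cell marker Cd3e at 0. Lyz2, the lysozyme gene of macrophages, averaged 26.5 ± 14 and 97.6 ± 9.82 CPM, and Ptprc, which encodes CD45, 0.594 ± 0.217 and 2.67 ± 0.184 CPM. Skeletal muscle markers were higher in 6 of 8 tested cases (sums of 114 to 124 and 170.1 to 217 CPM), with Acta1 and Actc1 at 1.79-fold and 1.71-fold. Keratinocyte markers added up to 223 to 378 CPM in ctrl and 357 to 568 CPM in caNrf2, with 2 of 11 called, Sfn (3.44-fold) and Krt14 (1.66-fold), of which Krt14 lost its call without ctrl replicate 2 or 3 or caNrf2 replicate 2 or 3. The part of these cells in the levels of the 9 genes was not tested.

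Megakaryocyte and platelet markers added up to 55.8 to 66.8 CPM in ctrl and 45.4 to 53.1 CPM in caNrf2, most of it Itgb3 (53.5 ± 5.43 and 41.8 ± 5.25 CPM, not called, but called under 6 of the 16 alternatives), an integrin gene that fibroblasts also express. The defining platelet genes Gp9 and Gp6 were at 0 in all libraries. A count of 0 allows up to 0.0994 CPM in the shallowest library, taken as 3 counts and covering counting error only. Of the 5 tested members of that list Pf4 (0.14 ± 0.0671 to 0.631 ± 0.189 CPM) and Itga2b, the latter named after its value was seen, were higher. Mural cell markers had 1 higher and 1 lower of 7. The lower one was Abcc9 (0.427-fold) and the higher one, named after its value was seen, Myh11, and Mcam averaged 50.1 ± 15 and 59.3 ± 10.8 CPM. Their sums were 185 to 253 and 201 to 270.0 CPM. Schwann cell and melanocyte markers had 2 of 8 higher, S100b (3.11-fold) among them, with sums of 28.4 to 36.1 and 33.7 to 40.2 CPM, and Mitf averaged 16.5 ± 2.75 and 15.8 ± 0.576 CPM. Of the keratinocyte markers 18.2% were called, beside 21.5% of all tested genes. For platelet, mural, and Schwann cell and melanocyte markers the share was 40%, 28.6% and 25%, of 5 to 8 tested genes each.

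Thbd (ENSMUSG00000074743, chromosome 2, 148404466 to 148408188, minus strand), a gene of 1 exon, encodes thrombomodulin, the membrane protein that turns thrombin towards protein C. It was at 199.7, 154 and 158 CPM in ctrl replicates 1 to 3 and at 134, 158 and 151 CPM in caNrf2 replicates 1 to 3. The groups overlapped, with ctrl replicate 1 above the other 5 libraries. The log2 fold change was -0.21 with a standard error of 0.12, and the gene was not called. Without ctrl replicate 1 it was -0.094, and without caNrf2 replicate 1 it was -0.14. The proportion of the pair differed between the groups: Procr TPM divided by Thbd TPM was 0.0541, 0.0633 and 0.0703 in ctrl and 2.74, 2.42 and 2.05 in caNrf2. Thbd was the more abundant transcript of the pair in every ctrl library and Procr in every caNrf2 library. The genes with the profile nearest to Thbd were Nemp1, Dzip3 and Exog (distances 0.0497, 0.0618 and 0.0724), also with their highest level in ctrl replicate 1 and not called.

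Of 4 other tested genes of the protein C system, 1 was lower and 3 were not called, with a median log2 fold change of -0.17. The lower one was Klf4, which encodes a Krüppel-like transcription factor known to activate Thbd in endothelium. It fell from 127 ± 2.02 to 84.0 ± 2.15 CPM (log2 fold change -0.59, standard error 0.07, edgeR adjusted p = 0.00042). Adam10, a membrane protease gene, averaged 183 ± 14.2 and 193 ± 12.8 CPM and was not called. Transcripts of protein C itself were nearly absent, with 1 count of Proc over all 6 libraries.

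Pros1 (ENSMUSG00000022912, chromosome 16, 62854307 to 62929346, plus strand) and Gas6 (ENSMUSG00000031451, chromosome 8, 13465374 to 13494535, minus strand) encode related secreted proteins that carry vitamin K-dependent Gla residues. Protein S is the cofactor of activated protein C. Gas6 is a ligand of the receptor tyrosine kinases Tyro3, Axl and Mertk, and protein S is a ligand of receptors of the same family. Pros1 was at 214, 197 and 202 CPM in ctrl and at 202, 173 and 213 CPM in caNrf2. The groups overlapped, and the log2 fold change of -0.06 (standard error 0.10) became 0.016 without caNrf2 replicate 2.

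Gas6 was at 276, 365 and 304 CPM in ctrl and at 174, 145 and 186 CPM in caNrf2. The highest caNrf2 library lay below the lowest ctrl library. The log2 fold change was -0.90 with a standard error of 0.13, or 0.535-fold, and the gene was called with any 1 library left out. It ranked 441 from the lowest fold change of all tested genes. Gas6 TPM divided by Pros1 TPM was 1.66, 2.37 and 1.88 in ctrl and 1.10, 1.08 and 1.12 in caNrf2, so that the relatives stood near equal in caNrf2 cultures and Gas6 led in ctrl cultures. Gas6 overlaps Tmem255b on the other strand by 3100 bases in GENCODE M21. Tmem255b was listed at 0 TPM in all 6 libraries.

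The receptors of this family, Tyro3, Axl and Mertk, were not called in 3 of 3 cases. Axl, the most abundant of them per length, had means of 632 ± 56.8 and 700.2 ± 58.7 CPM in ctrl and caNrf2 (log2 fold change 0.15, standard error 0.10, edgeR adjusted p = 0.334). Tyro3 averaged 18.6 ± 2.60 and 19.4 ± 0.786 CPM and Mertk 4.15 ± 1.10 and 4.51 ± 0.375 CPM, both named after their values were seen. Genes of vitamin K-dependent carboxylation and other Gla proteins had 0 higher, 3 lower and 7 not called of 10 tested, with a median log2 fold change of -0.25. Prrg4 (11.9 ± 1.83 to 6.70 ± 1.34 CPM, edgeR adjusted p = 0.00907) and Prrg1 (14.9 ± 1.62 to 9.83 ± 0.924 CPM, adjusted p = 0.00716), which encode membrane proteins with a Gla domain, fell. The third, named after its value was seen, was Vkorc1l1 (log2 fold change -0.26, edgeR adjusted p = 0.0339), a relative of the vitamin K epoxide reductase gene Vkorc1. Vkorc1l1 lost its call when any library except ctrl replicate 3 was left out, without the filter on low counts and with a length offset (-0.24). Vkorc1, also named after its value was seen, averaged 46.9 ± 3.41 and 39.5 ± 8.37 CPM (log2 fold change -0.25) and was not called. Calu, which encodes an inhibitor of the carboxylase, was the most abundant per length (1454 ± 49.7 and 1256 ± 16.3 CPM, not called, but called by DESeq2).

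F3 (ENSMUSG00000028128, chromosome 3, 121723537 to 121735052, plus strand) encodes tissue factor, the receptor of factor VII that starts coagulation. It was at 123, 261 and 217 CPM in ctrl and at 215, 221 and 259 CPM in caNrf2. Ctrl replicate 1 stood apart, and the other 5 libraries overlapped. The log2 fold change was 0.21 with a standard error of 0.23 and was not called, and without ctrl replicate 1 it was -0.056. The nearest profiles were those of Zfyve28, Gm20431 and Btg2 (distances 0.201, 0.253 and 0.256), which shared the low value in that library. Btg2, a growth-inhibitory gene induced early by many stimuli, was at 95.4 CPM in ctrl replicate 1 and at 162 to 174 CPM in the other 5 libraries.

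Tfpi (ENSMUSG00000027082, chromosome 2, 84432855 to 84476775, minus strand) encodes the Kunitz-type inhibitor of tissue factor with factor VIIa. It was at 95.1, 84.8 and 86.9 CPM in ctrl and at 112, 111 and 120.4 CPM in caNrf2. The caNrf2 values all lay above the ctrl values, by a small margin. The log2 fold change was 0.36 with a standard error of 0.08, or 1.29-fold, and the call was lost without caNrf2 replicate 3 (0.32). Tfpi has 10 annotated transcripts, of which ENSMUST00000144775 was at 0 TPM in every library. The reads were divided over the others, led by ENSMUST00000111717 (30.5% to 37.9% of TPM in ctrl, 32.4% to 36.7% in caNrf2) and ENSMUST00000028487 (24.7% to 33.8% and 30.6% to 39.0%). Relative use of the 9 transcripts tested was not called (edgeR diffSpliceDGE, unadjusted p = 0.919). Expected counts of similar transcripts are divided by estimate, so these shares are less certain than the gene sum.

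Tfpi2 (ENSMUSG00000029664, chromosome 6, 3962589 to 3974650, minus strand) encodes a related Kunitz-type inhibitor, found in extracellular matrix, that acts on plasmin and other proteases. It was at 10.5, 10.1 and 12.2 CPM in ctrl and at 7.85, 7.35 and 8.48 CPM in caNrf2. The caNrf2 libraries all lay below the ctrl libraries. The log2 fold change was -0.47 with a standard error of 0.12, or 0.722-fold, and the call was lost without ctrl replicate 3 (-0.39) or caNrf2 replicate 2 (-0.43). Both inhibitor genes thus passed the threshold in opposite directions. Tfpi TPM divided by Tfpi2 TPM was 5.70, 5.05 and 4.33 in ctrl and 8.97, 9.07 and 8.66 in caNrf2. Tissue factor relative to its inhibitor did not separate the groups: F3 TPM divided by Tfpi TPM was 1.64, 4.07 and 3.26 in ctrl and 2.43, 2.64 and 2.81 in caNrf2.

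F2r (ENSMUSG00000048376, chromosome 13, 95601804 to 95618459, minus strand) encodes the thrombin receptor, a G protein-coupled receptor that thrombin switches on by cutting its outer end. It was at 379, 442 and 379 CPM in ctrl and at 461, 540.2 and 458 CPM in caNrf2. The groups did not overlap, with the lowest caNrf2 library above the highest ctrl library, but the log2 fold change of 0.28 (standard error 0.10) was not called. DESeq2 called it (0.28), as did the fit with the replicate number as a block (0.28). F2rl1 (ENSMUSG00000021678, chromosome 13, 95511732 to 95525240, minus strand) lies 76.6 kb from F2r and encodes the related receptor that trypsin-like proteases and factor VIIa with tissue factor cleave. It was at 5.07, 4.73 and 3.01 CPM in ctrl and at 2.41, 4.74 and 3.09 CPM in caNrf2. The groups overlapped, on 89 to 212 counts per library, and the log2 fold change was -0.33 with a standard error of 0.28. It was -0.13 without caNrf2 replicate 1 and -0.65 without caNrf2 replicate 2. In TPM, F2r was 61.7 to 104 times F2rl1 in ctrl libraries and 94.4 to 159 times in caNrf2 libraries.

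Of the receptor relatives and the proteins that carry their signal, 1 of 10 tested was higher, 0 were lower and 9 were not called, with a median log2 fold change of 0.005. The higher one was Gna13, a G protein subunit that carries the thrombin receptor's signal (109 ± 4.45 to 144 ± 16.3 CPM, log2 fold change 0.41, standard error 0.10, edgeR adjusted p = 0.0174). It lost its call without ctrl replicate 3 (0.37), caNrf2 replicate 2 (0.38) or caNrf2 replicate 3 (0.32). Its relative Gna12 averaged 147 ± 9.45 and 139.9 ± 6.13 CPM and was not called. F2rl2 had 1 count over all libraries.

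Ordered by TPM, which takes gene length into account, Gas6 led in ctrl cultures (233 ± 34.3, SD, n = 3), followed by F2r (229.8 ± 21.2), F3 (209 ± 74.0), Pros1 (119 ± 4.44), Thbd (86.7 ± 12.5), Tfpi (71.4 ± 5.82), Tfpi2 (14.3 ± 1.5), Procr (5.37 ± 0.366) and F2rl1 (2.97 ± 0.759). Library ranges of neighbours overlapped between Gas6 and F2r and between F2r and F3, and were apart for the other 6 neighbouring pairs. In caNrf2 cultures F2r was first (269 ± 35.1), then F3 (232 ± 31.9), Procr (172 ± 19.6), Gas6 (119.6 ± 14.9), Pros1 (109 ± 11.4), Tfpi (88.2 ± 5.90), Thbd (72.2 ± 9.57), Tfpi2 (9.92 ± 0.887) and F2rl1 (2.29 ± 0.889). There the ranges of F2r and F3 and those of Gas6 and Pros1 overlapped. Procr moved from place 8 to place 3 and Gas6 from place 1 to place 4.

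**Figure D3:**
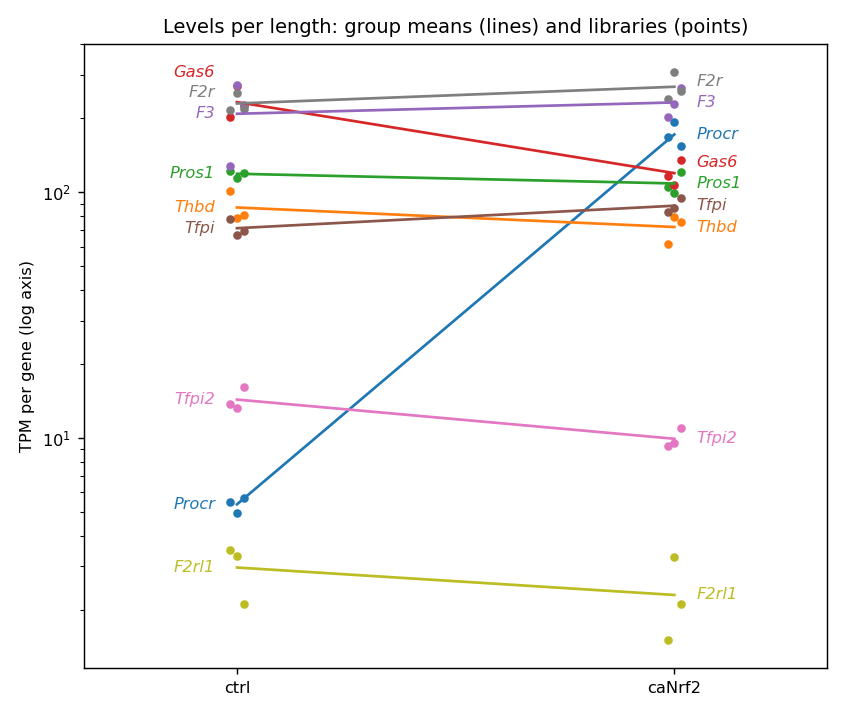
Level per length of the 9 genes in TPM (log axis) in ctrl and caNrf2 libraries, with lines between the group means and points for the 3 libraries of each group. The line of Procr rises from 5.37 to 172 TPM and crosses those of Tfpi2, Tfpi, Thbd, Pros1 and Gas6.

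Transcripts of most plasma proteins of the cascade were near or at 0. F9, F11, F12, F13b and Fgb had no counts in any library, F2 had at most 6 counts per library, F7 2 and F10 1. Of 17 coagulation factor genes, 4 were tested, 1 was higher, 0 were lower and 3 were not called. The higher one was F5, which encodes the cofactor that activated protein C inactivates, at low levels of 0.304 ± 0.116 and 0.784 ± 0.0995 CPM (log2 fold change 1.40, standard error 0.33, edgeR adjusted p = 0.0164). It lost its call without ctrl replicate 1 (1.36), ctrl replicate 2 (1.15) or caNrf2 replicate 3 (1.28). Macrophage markers were higher in the same libraries, as given above, and their part in the F5 level was not tested. Vwf, the von Willebrand factor gene of endothelium and platelets, averaged 1.67 ± 0.572 and 1.61 ± 0.13 CPM. The other tested factor genes, named after their values were seen, were F8 and F13a1. F8 averaged 2.37 ± 0.278 and 2.10 ± 0.350 CPM and F13a1 0.870 ± 0.250 and 1.44 ± 0.312 CPM, and neither was called.

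Among serpins and other anticoagulant genes, 1 of 8 tested was higher, 0 were lower and 7 were not called, with a median log2 fold change of -0.19. The higher one was Sdc4, which encodes a cell-surface heparan sulfate proteoglycan, at 60.6 ± 6.92 and 125 ± 6.77 CPM (log2 fold change 1.04, standard error 0.10, edgeR adjusted p = 0.000122). Anxa5, which encodes a protein that covers phosphatidylserine, averaged 531 ± 21.2 and 473 ± 20.7 CPM and was not called. Genes that expose or hide phosphatidylserine, the membrane lipid on which coagulation complexes assemble, had 0 higher, 2 lower and 6 not called of 8. Plscr4, of the phospholipid scramblase family, fell from 6.97 ± 0.23 to 3.05 ± 0.383 CPM (edgeR adjusted p = 0.00054). Plscr3, the most abundant of the group per length (TPM), averaged 96.9 ± 3.94 and 92.2 ± 6.56 CPM.

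Over all 7 lists, 47 of 68 genes were tested, 3 were higher, 6 lower and 38 not called, which is 19.1% called, near the 21.5% of all tested genes. Their median log2 fold change was -0.07.

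**Figure D4:**
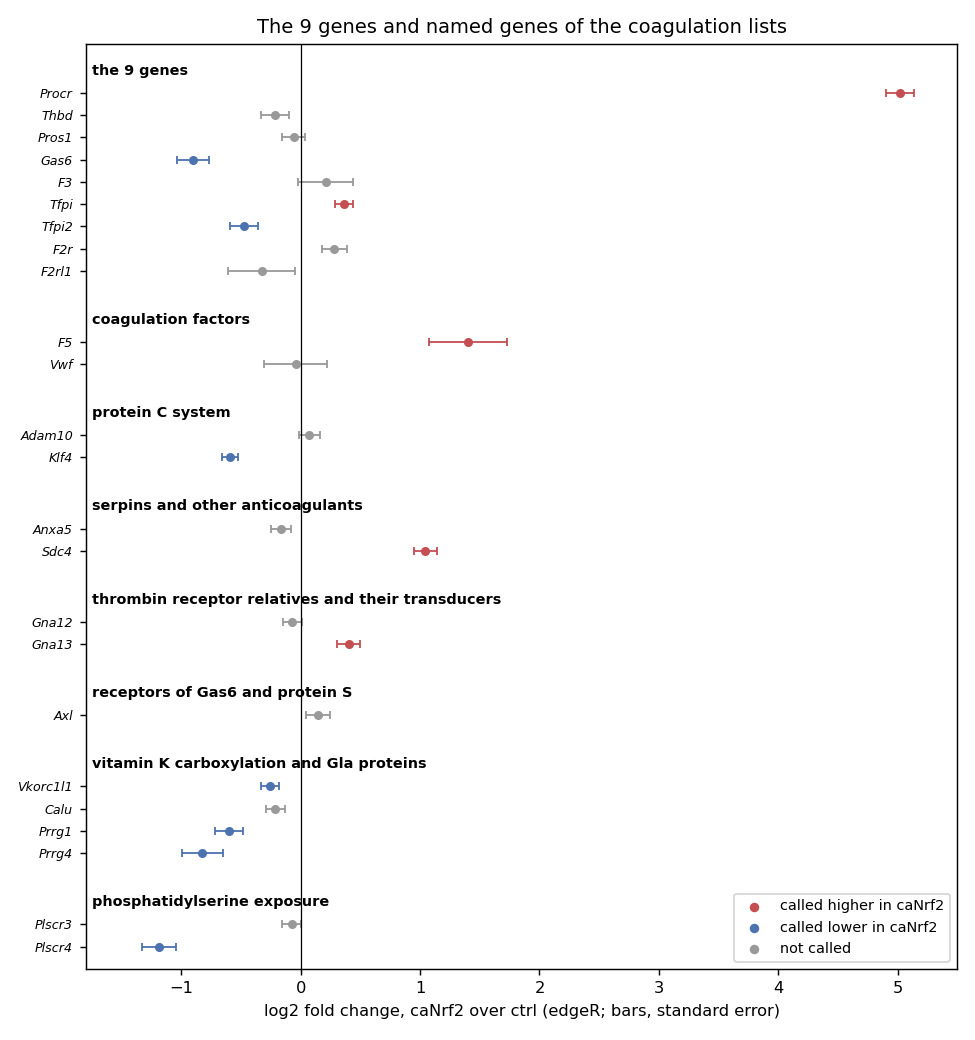
Log2 fold change of caNrf2 over ctrl (x axis, bars give the standard error) for the 9 genes and for the genes of the lists named in the text, coloured by their call. Procr, at 5.02, lies far to the right of every other gene shown, of which F5 (1.40) and Sdc4 (1.04) come next.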

How the data were processed

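The authors deposited 1 transcript table per library, in which, per the file headers, expected counts per transcript (a maximum likelihood estimate and a posterior mean) and TPM stand beside exon coordinates. Tools named in the submitters' processing notes are CASAVA 1.8 and RSEM 1.2.21, with the build GRCm38. No aligner, annotation release or strand is given in the sources used here. For each gene ID the maximum likelihood counts of its transcripts were added up, then rounded to whole numbers. Symbols came from a gene name table (42462 of 43629 IDs). Groups and numbers came from sample titles. Genes were tested with edgeR 4.0.16 (R 4.3.3): filterByExpr (minimum count 10, minimum total count 15), TMM and the two-sided quasi-likelihood test of all 6 libraries with Benjamini-Hochberg adjustment over 15341 genes. A gene with an adjusted p under 0.05 is called. Standard errors were derived from the F statistic. Transcript usage was tested with diffSpliceDGE. The scripts were checked on simulated data. TPM was used for levels only. A single read was worth 0.0221 to 0.0331 CPM. Promoter windows came from RefSeq (GRCm38.p6), gene overlaps and transcript types from GENCODE M21 on the same build.

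The 9 genes and the lists of pathway genes and cell markers were chosen with earlier results of these data known. Named beside the 9 genes are, for each pathway list, the 2 called genes of smallest adjusted p in each direction and the most abundant gene, for each marker list the called gene of smallest adjusted p and the most abundant gene, and the 3 genes of nearest profile (log2 CPM, prior count 2) for Procr, Thbd and F3. Klkb1 was not matched, and a few genes that the rule names or that were counted are not reported here by name. Alternatives were other tools (DESeq2 1.42.0, limma-voom from limma 3.58.1), other scalings (size factors of DESeq2, upper quartile, totals alone), other filters (none, or 1 CPM in 3 libraries), posterior mean counts, a length offset, a replicate block and leaving out each library.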

Additional observations from a re-analysis of the deposited data

How the results depend on the processing

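Procr and Gas6 were called under all 16 alternatives. The number of the 9 genes called ranged, with 1 library left out, from 1 to 2 on the higher side (1 without caNrf2 replicate 3, where Tfpi missed the threshold) and from 1 to 2 on the lower side (1 without ctrl replicate 3 or caNrf2 replicate 2, where Tfpi2 missed it). DESeq2 and the replicate block called 3 of the 9 genes higher, the third being F2r. Over all genes, the 1385 lower calls became, with 1 library left out, 823 (without ctrl replicate 3) to 1143, with 864 without caNrf2 replicate 2. The pathway genes called higher ranged in the same fits from 1 (without caNrf2 replicate 3) to 4. The log2 fold changes that changed sign were those of genes that were not called. With 1 library left out they ranged from -0.056 to 0.45 for F3, -0.13 to 0.016 for Pros1, -0.071 to 0.42 for Zfyve28, -0.14 to 0.38 for Gm20431, -0.047 to 0.34 for Btg2, -0.23 to 0.25 for Vwf and -0.15 to 0.083 for Mitf. Vwf also turned with limma-voom (0.023). The cause was not tested, beyond the construction of each alternative with fewer libraries.

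The replicate numbers were not taken as pairs in the main test, although same-numbered libraries of both groups deviated somewhat alike from their group means. Their correlations across genes were 0.214, 0.209 and 0.0953, and 5 of 6 libraries correlated best with their own number. With the replicate block 1888 genes were higher and 1330 lower. F2rl1, F5 and the plasma factors rest on few reads, which limits what can be said of them.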
